A study of Homo sapiens with 12 samples.

Results

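The 10 genes described here encode secreted growth factors that act on blood vessels: midkine (MDK) and pleiotrophin (PTN), VEGFA, VEGFB, VEGFC, FGF2, PDGFA, PDGFC, ANGPTL4 and HBEGF. They were chosen by symbol, with the transcripts of each symbol summed, out of 24559 gene symbols in the deposited table, and all 10 passed the filter on low counts that left 16538 genes for testing. RNA from the polysome fractions of sucrose gradients, which hold mRNAs carrying several ribosomes, was sequenced from 3 established triple-negative breast cancer (TNBC) cell lines. TRMT112, a small partner protein that several rRNA and tRNA methyltransferases need, was lowered in MDA-MB-231 and SUM159 (KD, a GIPZ TRMT112 shRNA) and raised in BT549 (OE, a TRMT112 open reading frame in pReceiver-M02). Controls (EV) carried a GIPZ non-silencing shRNA in MDA-MB-231 and SUM159 and the empty pReceiver-M02 vector in BT549. All shRNA cells were selected with puromycin and all BT549 cells with G418, after lipid transfection. Each of the 6 groups had 2 libraries. Only 1 shRNA construct and 1 expression construct are named, and whether the selected cells were pools or clones is not given in the sources used here. Nothing in the labels says that the 2 libraries of a group came from separate cultures, so the p-values measure the spread between these libraries, which may be technical. Libraries of total RNA were not analysed here, so a change in polysome RNA cannot be divided into a change in mRNA amount and a change in ribosome loading.

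Midkine and pleiotrophin are the only members of their family of heparin-binding cytokines, and they signal through receptors that include ALK, PTPRZ1, LRP1, syndecans and integrins. VEGFA drives the growth and permeability of blood vessels through KDR and FLT1, VEGFB binds FLT1, and VEGFC acts mainly on lymphatic vessels through FLT4. FGF2 is a heparin-binding mitogen of endothelial cells, the platelet-derived growth factors PDGFA and PDGFC act on mesenchymal and mural cells through PDGFRA, ANGPTL4 is a lipoprotein lipase inhibitor that responds to PPARs and to hypoxia, and HBEGF is a membrane-anchored EGF receptor ligand that is shed by metalloproteinases. Carcinoma cells secrete many of these ligands, while their receptors lie partly on the tumor cells and partly on the vessel and stromal cells around them.

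Library totals lay between 22954226 and 27434677 expected counts, and values below are normalised counts (edgeR, TMM scaling) unless stated. TRMT112 was lower in both KD libraries than in both EV libraries of MDA-MB-231 (1764 and 1682 against 4147 and 3938) and of SUM159 (3909 and 3699 against 6332 and 6566), and higher in OE than in EV of BT549 (4286 and 4319 against 3076 and 3087). BT549 OE stood far from BT549 EV: the median absolute log2 difference over genes was 0.636, against 0.433 between SUM159 KD and EV, 0.223 between MDA-MB-231 KD and EV, 0.0809 to 0.0991 between libraries of the same group and at least 0.731 between lines. Summed over 13 fibroblast and mural cell markers, the level was 8336 and 8293 in the BT549 EV libraries and 154100 and 150200 in OE. Of the 13, 3 were at 0 in each EV library and none was at 0 in OE. Of 3 leukocyte markers tested, 1 rose, 1 fell and 1 did not pass in BT549 OE. The marker that fell was CD68, with a mean of 4210 in EV and 164.6 in OE. The part of these marker differences in the BT549 values below was not tested, and BT549 OE has no other control to be compared with. Luminal and hormone receptor markers, of which 10 were in the table, summed to 20220 to 22900 in MDA-MB-231 and SUM159 and to 5479 to 8411 in BT549, with at most 2 of the 10 at 0 in a library. Of these, the luminal keratin KRT8 had group means of 4927 to 8525 in MDA-MB-231 and SUM159 and of 9.904 and 15.08 in BT549. GATA3 went the other way, with 24.05 to 141 in MDA-MB-231 and SUM159 and 1380 (EV) and 167.2 (OE) in BT549. ERBB2 was at 3360 in BT549 EV, against 1475 and 2693 in EV of MDA-MB-231 and SUM159. PGR had no count outside BT549 EV, where 3 and 9 raw counts were found. Every listed transcript has a count in BT549, so PGR transcripts found only in the other lines would be missing. The mesenchymal marker VIM had group means of 17140 to 47400 and the 10 mesenchymal markers summed to 116700 to 155300. The endothelial marker list summed to 590.2 to 916.8 in BT549 and SUM159 and to 5003 to 6356 in MDA-MB-231. In MDA-MB-231 EV and KD, ESAM had means of 2963 and 3751, EGFL7 of 959.3 and 1399, and CDH5 of 15.77 and 88.2. Of 8 endothelial markers tested, 4 rose and 1 fell in BT549 OE, the latter being ROBO4 (513.7 to 45.44).

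The first question was whether polysome RNA of the ligands moved with TRMT112. Levels are scaled within each library, so rose and fell mean changes relative to the other genes in the polysome RNA. The paper reports smaller polysome peaks in KD cells and larger ones in BT549 OE. Amounts of polysome RNA per cell cannot be read from these values. In MDA-MB-231 KD, 3 of the 10 rose (MDK, VEGFC and PDGFA), 3 fell (VEGFA, PTN and ANGPTL4) and 4 did not pass the test, beside 21.2% of all genes tested that rose and 16.5% that fell (adjusted p under 0.05, edgeR quasi-likelihood test with Benjamini-Hochberg adjustment). With scaling by library size alone, 36.66% of all genes called in this comparison were higher, against 56.17% with TMM scaling. SUM159 KD changed all 10: MDK, PTN, VEGFB, PDGFC and HBEGF rose and VEGFA, VEGFC, FGF2, PDGFA and ANGPTL4 fell, beside 28.6% of all genes higher and 31.4% lower. BT549 OE also changed all 10, with 6 higher (MDK, PTN, VEGFB, PDGFA, ANGPTL4 and HBEGF) and 4 lower (VEGFA, VEGFC, FGF2 and PDGFC), beside 35.6% of all genes higher and 35.0% lower. The median log2 fold change of the 10 was -0.08 in MDA-MB-231, 0.11 in SUM159 and 0.27 in BT549, against medians over all genes of 0, 0 and 0.02. MDK rose and VEGFA fell in all 3 comparisons, so in neither gene did the direction follow the direction of the TRMT112 change.

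**Figure D1:**
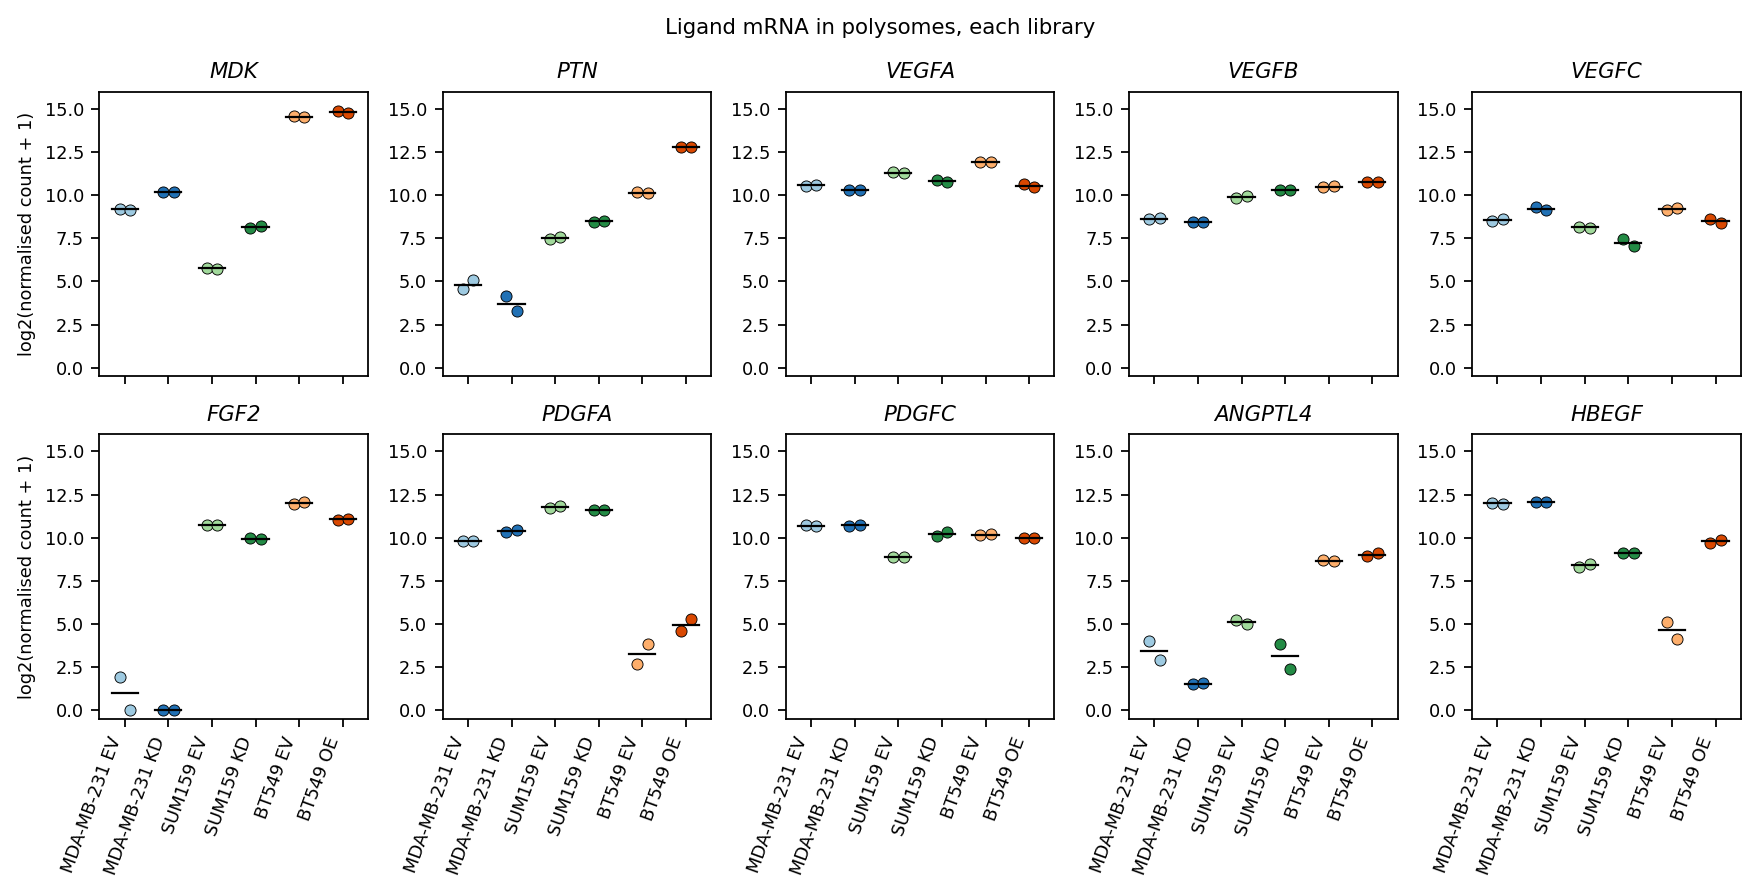
Normalised counts of the 10 ligands on a log2 axis (1 added), with a point for each of the 2 libraries of a group and a line at their mean on this scale. MDK spans from about 50 counts in SUM159 EV to 29110 in BT549 OE, whereas the group means of VEGFA lie between 1251 and 3926.

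**Figure D2:**
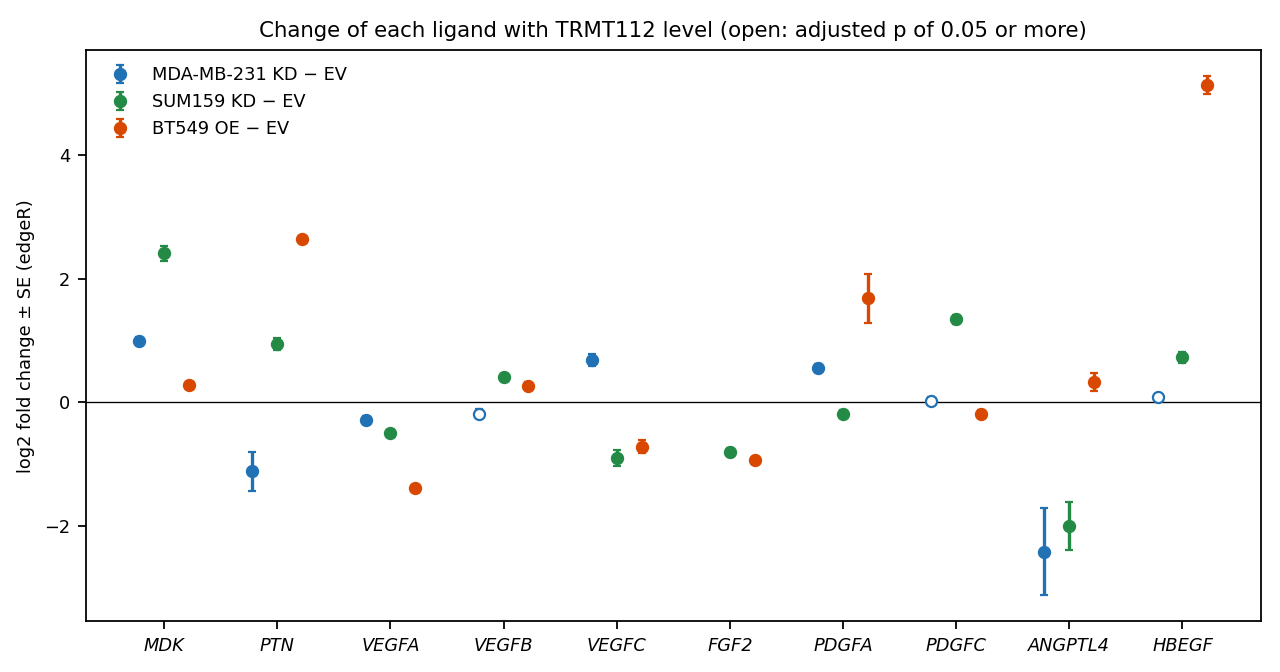
Log2 fold changes with standard errors from edgeR for MDA-MB-231 KD, SUM159 KD and BT549 OE, each against its own EV group. Open points did not pass an adjusted p of 0.05, and no fold is drawn for FGF2 in MDA-MB-231, where 3 counts were found in 4 libraries. HBEGF in BT549 OE lies highest at 5.12.

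MDK was the ligand that rose in every line. In MDA-MB-231 it had 589.8 and 566.2 normalised counts in EV and 1159 and 1147 in KD, a log2 fold change of 1.00 (SE 0.05, adjusted p = 1.2e-12). SUM159 EV held far less of it, 53.49 and 52.28, and KD 271.2 and 290.6, a log2 fold change of 2.41 (SE 0.12, adjusted p = 3.22e-14). BT549 contained the most, 24540 and 23590 in EV and 29920 and 28290 in OE, and the increase there was small, 0.27 on the log2 scale (SE 0.03, adjusted p = 1.99e-08). The EV and altered libraries did not overlap in any of the lines. MDK lies on chromosome 11 (46380756 to 46383837, plus strand, GRCh38), and 12 of its transcripts are listed. The main transcripts MDK-203 and MDK-205 encode the same 143 codons and differ outside the coding sequence. MDK-205 took 25.1% and 26.4% of MDK counts in MDA-MB-231 EV and 20.2% and 20.5% in KD. In SUM159 it took 45.3% and 27.5% of the counts under EV but 6.55% and 6.38% under KD, and in BT549 it took between 1.46% and 2.81%. The shares in SUM159 EV rest on 53 and 52 counts of the gene. Division of reads between overlapping transcripts is an estimate, and the shares were not tested.

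PTN, the close relative of MDK, moved in opposite directions in the KD lines. Its levels in MDA-MB-231 were low, 22.58 and 32.87 in EV and 16.86 and 8.671 in KD, and they fell by 1.11 on the log2 scale (SE 0.32, adjusted p = 0.00724). From the raw counts, 60 in EV and 27 in KD, the ratio of KD to EV was 0.461 with a 95% counting interval of 0.282 to 0.738. This call was lost without EV replicate 2 (adjusted p = 0.138), without KD replicate 2 (adjusted p = 0.141) and with MDA-MB-231 fitted alone (adjusted p = 0.0538). SUM159 had 178.6 and 193 counts of PTN in EV and 350.8 and 362.4 in KD, an increase of 0.94 (SE 0.10, adjusted p = 9.31e-09). BT549 had the highest levels, 1153 and 1113 in EV and 7105 and 7029 in OE, an increase of 2.64 (SE 0.05, adjusted p = 2.31e-22). EV and altered libraries did not overlap in SUM159 or BT549, nor, by a smaller margin, in MDA-MB-231. PTN-201 held 94.1% to 98.0% of PTN counts in the BT549 libraries.

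Of the 10 ligands, HBEGF and PTN had the largest increases in BT549 OE, and both also rose in SUM159 KD. Their RefSeq promoter windows (GRCh38.p14, minus strand, 300 bases around the annotated start) are shown to set them side by side, at chr5:140346554-140346853 for HBEGF and chr7:137343684-137343983 for PTN. Capitals mark matches to the GC box GGGCGG on either strand and to the TATA box TATAAA, also searched on either strand.
HBEGF: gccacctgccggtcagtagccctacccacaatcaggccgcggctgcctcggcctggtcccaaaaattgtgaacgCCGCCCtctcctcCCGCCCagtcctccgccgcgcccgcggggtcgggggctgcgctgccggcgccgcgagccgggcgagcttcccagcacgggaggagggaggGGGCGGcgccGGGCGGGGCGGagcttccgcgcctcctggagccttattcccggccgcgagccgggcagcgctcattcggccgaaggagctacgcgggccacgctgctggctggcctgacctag
PTN: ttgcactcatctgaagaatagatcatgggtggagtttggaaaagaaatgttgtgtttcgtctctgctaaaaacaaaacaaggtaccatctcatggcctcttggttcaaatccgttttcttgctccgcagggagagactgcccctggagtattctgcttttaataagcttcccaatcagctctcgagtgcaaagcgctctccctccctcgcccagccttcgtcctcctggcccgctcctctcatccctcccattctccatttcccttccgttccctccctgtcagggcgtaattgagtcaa
The HBEGF window held 5 GC box matches, of which 2 overlap by a shared base, and the PTN window none. GC content was 75.0% in HBEGF and 50.3% in PTN, against a median of 58.7% over 35116 windows, and CpG pairs numbered 38 and 10, against a median of 14. A GC box match was present in 44.95% of all windows and a TATAAA match in 11.5%, and neither of these 2 windows held TATAAA. Among the 7 ligands with an entry, only ANGPTL4 held a TATAAA match and a match to the hypoxia response core ACGTG, which 21.4% of all windows hold. These matches describe the letters of the windows and show no binding.

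VEGFA fell in all 3 comparisons. In MDA-MB-231 the libraries had 1501 and 1528 counts in EV and 1255 and 1246 in KD, and the log2 fold change was -0.28 (SE 0.05, adjusted p = 0.00011). SUM159 went from 2569 and 2529 to 1864 and 1772, a change of -0.49 (SE 0.05, adjusted p = 2.1e-09). The decrease in BT549 OE, from 3940 and 3912 to 1586 and 1434, was -1.38 (SE 0.05, adjusted p = 6.68e-18). No EV library overlapped with a KD or OE library of its line, and across the 6 groups only MDA-MB-231 EV and BT549 OE had overlapping VEGFA levels. VEGFA lies on chromosome 6 (43770184 to 43786487, plus strand), where 188 of its exon bases are shared with an antisense lncRNA. The strand setting of the counting is not given in the sources used here, so reads of the shared bases cannot be assigned with certainty.

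The deposited table also divides VEGFA into 25 transcripts, of which 19 are annotated as protein-coding and hold 81.3% to 97.8% of VEGFA counts. After the fifth coding exon, 2 optional exons encode the heparin-binding segments that hold the protein at the cell surface and matrix, the first of 72 bases (43780732 to 43780803) and the second of 132 bases (43781956 to 43782087). The junction that leaves the fifth coding exon (43778889 to 43778918) tells the forms apart. It is printed from GENCODE 44 transcripts (GRCh38, plus strand), with the 15 bases of the next exon in capitals.
VEGFA-209, second exon only: agcaagacaagaaaaTCCCTGTGGGCCTTG
VEGFA-206, neither exon: agcaagacaagaaaaATGTGACAAGCCGAG
VEGFA-226, both exons: agcaagacaagaaaaAAAATCAGTTCGAGG
Transcripts with the second exon only were the most abundant class in every library. They took 66.9% and 68.5% of protein-coding VEGFA counts in MDA-MB-231 EV and 64.9% and 57.1% in KD. The same class took 51.6% and 49.2% in SUM159 EV and 46.3% and 44.4% in KD. In BT549 it took 62.4% and 67.6% in EV and 53.3% and 60.4% in OE. The share was thus lower in both KD or OE libraries than in both EV libraries in each line, by margins near the spread between libraries of a group. Forms with neither exon, which encode the freely diffusible protein, took 29.3% and 30.0% in SUM159 EV and 39.8% and 33.7% in KD, and 23.4% and 23.7% in BT549 EV and 30.3% and 27.6% in OE. Their shares in MDA-MB-231 overlapped between EV (26.9% and 28.8%) and KD (25.7% and 36.4%). Forms with both exons took 2.70% to 6.76% in MDA-MB-231, 13.8% to 21.8% in SUM159 and 8.67% to 16.3% in BT549.

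**Figure D3:**
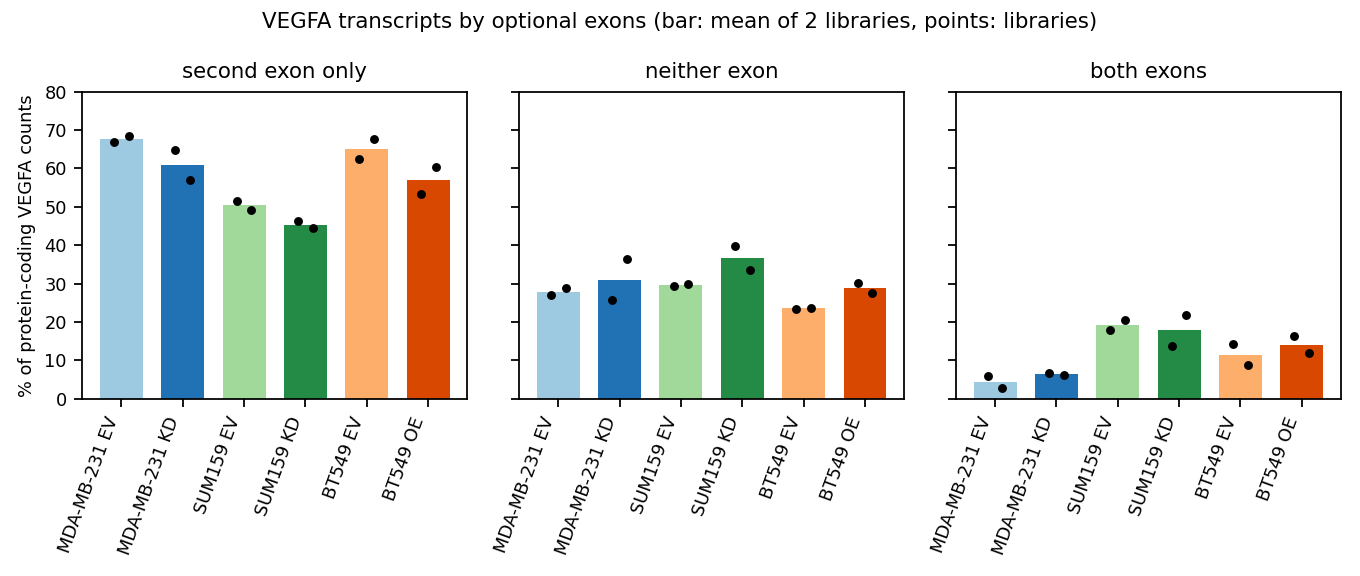
Share of protein-coding VEGFA counts in transcripts with the second optional exon only, neither exon or both exons, as the mean of 2 libraries (bars) and each library (points). The class with the second exon only is the largest in all 6 groups, and its points lie lower in KD or OE than in EV of the same line. Transcripts with the first exon only hold at most 2.67% and are not drawn.

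VEGFB, a ligand of FLT1 like VEGFA, rose in SUM159 KD and in BT549 OE. It had 927.5 and 984.2 counts in SUM159 EV and 1284 and 1252 in KD, a log2 fold change of 0.41 (SE 0.06, adjusted p = 1.12e-06). In BT549 it went from 1395 and 1464 to 1707 and 1740, a change of 0.27 (SE 0.05, adjusted p = 0.000101) that did not pass with only the most abundant transcript counted (adjusted p = 0.0564). MDA-MB-231 libraries had 385.7 and 400.9 in EV and 351.3 and 342 in KD, and the difference of -0.18 (SE 0.08) missed the threshold (adjusted p = 0.0674) although the groups did not overlap. It passed with scaling by library size alone (adjusted p = 0.00731) and with a mean of at least 50 counts as the filter (adjusted p = 0.0393). VEGFB (64234584 to 64239264) and TRMT112 (64316460 to 64317559) lie near each other on chromosome 11.

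Alternative splicing at the sixth coding exon gives VEGFB a soluble form (VEGFB-201, 207 codons) and a heparin-binding form (VEGFB-202, 188 codons). Their junctions with the fifth coding exon (chromosome 11, 64237187 to 64237222, plus strand) are shown because the table counts the forms separately, again with the next exon in capitals.
VEGFB-201: tgtgaagccagacagGGCTGCCACTCCCCA
VEGFB-202: tgtgaagccagacagCCCCAGGCCCCTCTG
VEGFB-201 was the main form everywhere. It held 75.2% to 79.5% of VEGFB counts in MDA-MB-231 and SUM159 and 80.4% to 85.1% in BT549, and within each line the KD or OE shares overlapped with the EV shares.

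VEGFC went opposite ways in the KD lines. MDA-MB-231 rose from 356.5 and 389.9 in EV to 631.4 and 564.6 in KD, a log2 fold change of 0.68 (SE 0.10, adjusted p = 8.76e-06). SUM159 fell from 289.7 and 275.5 to 173.4 and 133.2, a change of -0.89 (SE 0.13, adjusted p = 2.07e-06). BT549 fell too, from 573.7 and 616.8 in EV to 390.9 and 333.9 in OE, a change of -0.71 (SE 0.11, adjusted p = 2.04e-06). In none of the lines did the groups overlap. Nearly all VEGFC counts, 98.9% or more, lay in the transcript VEGFC-202.

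FGF2 showed the largest differences between the lines. MDA-MB-231 had 3 raw counts in EV replicate 1 and none in the other 3 libraries, at or under the limit of 3 counts that a count of 0 allows, so no fold is given there. SUM159 had 1693 and 1725 normalised counts in EV and 994 and 963.5 in KD, a log2 fold change of -0.80 (SE 0.06, adjusted p = 1.53e-10). BT549 fell from 3886 and 4278 to 2082 and 2197, a change of -0.93 (SE 0.05, adjusted p = 6.29e-13). EV and altered libraries did not overlap in these 2 lines. FGF2 is transcribed from chromosome 4 (122826682 to 122898236, plus strand), and 804 of its exon bases are shared with the antisense gene NUDT6. Of its 3 transcripts, FGF2-203 held 27.5% and 30.9% of FGF2 counts in BT549 EV and 10.5% and 6.97% in OE, while in SUM159 it held 1.34% to 2.20%.

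The PDGF genes encode ligands of the receptor PDGFRA. PDGFA was highest in SUM159, with 3443 and 3650 in EV and 3175 and 3086 in KD, a small decrease of -0.18 on the log2 scale (SE 0.05, adjusted p = 0.00345) that did not pass without EV replicate 2 (adjusted p = 0.0703) or with only the most abundant transcript counted (adjusted p = 0.512). In MDA-MB-231 it rose from 909.7 and 891.3 to 1278 and 1375, a change of 0.56 (SE 0.06, adjusted p = 1.74e-07). With the most abundant transcript, PDGFA changed there by 0.53 (SE 0.15), which likewise did not pass (adjusted p = 0.113, over transcripts). BT549 held little of it, 5 and 12 raw counts in EV and 21 and 33 in OE, and the ratio of OE to EV was 3.23 (95% counting interval 1.84 to 5.94, adjusted p = 0.000592). The groups did not overlap in any line. PDGFA-203, the short form without the basic C-terminal stretch that retains the long form PDGFA-201 at the matrix, held 87.9% to 98.7% of PDGFA counts in MDA-MB-231 and SUM159. The forms part at the end of the fifth coding exon (chromosome 7, 501116 to 501242, minus strand), and the sequences show where, with the next exon in capitals.
PDGFA-203: gggaagaggacacggATGTGAGGTGAGGAT
PDGFA-201: gggaagaggacacggGAAGGCCTAGGGAGT

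PDGFC rose in SUM159 from 467.3 and 466.5 in EV to 1091 and 1274 in KD, a log2 fold change of 1.34 (SE 0.07, adjusted p = 1.11e-13). MDA-MB-231 had 1705 and 1623 in EV and 1668 and 1730 in KD, overlapping groups with a difference of 0.03 (SE 0.06, adjusted p = 0.744). In BT549 the levels went from 1131 and 1191 to 1024 and 1010, a change of -0.19 (SE 0.07, adjusted p = 0.0141) that did not pass without EV replicate 2 (adjusted p = 0.0932) or OE replicate 2 (adjusted p = 0.0597). PDGFC-201, which is annotated as a target of nonsense-mediated decay, held 24.8% to 40.4% of PDGFC counts in these polysome libraries. In MDA-MB-231 it took 38.5% and 33.8% under EV but 28.3% and 24.8% under KD, without overlap, whereas in SUM159 the shares of EV (40.3% and 38.5%) and KD (35.4% and 40.4%) overlapped. In BT549 the share was higher in OE (33.9% and 36.1%) than in EV (30.4% and 33.0%), also without overlap.

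ANGPTL4 fell in both KD lines, from low levels. MDA-MB-231 had 16 and 7 raw counts in EV and 2 in each KD library, and the ratio of KD to EV was 0.178 (95% counting interval 0.0448 to 0.522, adjusted p = 0.00846). Without EV replicate 1 (adjusted p = 0.167) or KD replicate 1 (adjusted p = 0.0552), or with the most abundant transcript (adjusted p = 0.153), it did not pass. SUM159 had 36 and 31 raw counts in EV and 13 and 5 in KD, a ratio of 0.248 (0.139 to 0.423, adjusted p = 0.000109). ANGPTL4 was much more abundant in BT549, at 422.6 and 394.2 normalised counts in EV and 480.6 and 543.3 in OE, an increase of 0.33 on the log2 scale (SE 0.14, adjusted p = 0.0441). That call did not outlast the removal of any single BT549 library (adjusted p between 0.055 and 0.296), the use of the most abundant transcript (adjusted p = 0.753) or the DESeq2 test (adjusted p = 0.0885). EV and altered libraries did not overlap in any of the lines.

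HBEGF had the largest fold change among the members. BT549 EV had 31 and 15 raw counts and OE 744 and 837, a ratio of 34.9 (95% counting interval 26.1 to 47.9) and a log2 fold change of 5.12 (SE 0.15, adjusted p = 3.27e-19). In SUM159 it rose from 317.9 and 357.9 normalised counts to 561.5 and 559.6, a change of 0.73 (SE 0.09, adjusted p = 1.54e-07). MDA-MB-231 had the most HBEGF, 4169 and 4028 in EV and 4370 and 4321 in KD, and the difference of 0.08 (SE 0.05) did not pass (adjusted p = 0.203). The groups did not overlap in any line, including MDA-MB-231. A single transcript, HBEGF-201, held at least 99.9% of the counts in every library.

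The KD changes were compared between SUM159 and MDA-MB-231 in the same model, and 8 of the 10 members differed, where 50.9% of all genes tested did. The change was greater in SUM159 for PTN (difference 2.05 on the log2 scale, SE 0.33), MDK (1.41, SE 0.14), PDGFC (1.31, SE 0.09), HBEGF (0.65, SE 0.10) and VEGFB (0.59, SE 0.10). It was lower in SUM159 for VEGFC (-1.57, SE 0.16), PDGFA (-0.74, SE 0.08) and VEGFA (-0.21, SE 0.07). The VEGFA difference (adjusted p = 0.0115) did not pass without SUM159 KD replicate 2 (adjusted p = 0.062) or with the BT549 libraries left out (adjusted p = 0.063). With only the most abundant transcript counted, the differences of VEGFA (adjusted p = 0.585), PDGFA (adjusted p = 0.0698) and HBEGF (adjusted p = 0.059) did not pass. ANGPTL4 gave 0.42 (SE 0.82, adjusted p = 0.725), a wide interval that leaves a large difference in either direction undetected at this depth. The FGF2 difference did not pass either (adjusted p = 0.233), and no size is given for it because MDA-MB-231 had 3 counts of FGF2 in all.

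Next, the EV libraries were set side by side to see which ligands each line expresses without any change of TRMT112, although the lines also differ in medium and BT549 in control vector and selection, which cannot be told apart from the line. All 10 members differed between SUM159 EV and MDA-MB-231 EV, where 75.7% of all genes did, between BT549 EV and MDA-MB-231 EV (79.5% of all genes) and between BT549 EV and SUM159 EV (78.4% of all genes). With the most abundant transcript, VEGFA (adjusted p = 0.217) and VEGFC (adjusted p = 0.0593) did not pass between SUM159 EV and MDA-MB-231 EV. MDK was 8.83 higher on the log2 scale in BT549 than in SUM159 (SE 0.06), and PDGFA was 8.55 lower (log2 fold change -8.55, SE 0.13). HBEGF gave -7.33 (SE 0.11) in BT549 against MDA-MB-231, and PTN 5.34 (SE 0.12). From 3 counts in MDA-MB-231 EV and 3393 in SUM159 EV, the ratio for FGF2 was 1230 (95% counting interval 420 to 5960), and against BT549 EV it was 2940 (1000 to 14200). VEGFA, VEGFB, VEGFC and PDGFC varied least, with 3.14-, 4.97-, 3.90- and 3.64-fold between their highest and lowest group means. Neighbouring groups in the order of levels overlapped for VEGFC (MDA-MB-231 KD with BT549 EV, and MDA-MB-231 EV with BT549 OE), PDGFC (MDA-MB-231 KD with EV, and SUM159 KD with BT549 EV) and ANGPTL4 (MDA-MB-231 EV with SUM159 KD), besides VEGFA and FGF2 as given above.

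Levels per length, as TPM computed from the expected counts and annotated transcript lengths, gave each line a different leading ligand. In MDA-MB-231 EV, HBEGF came first with a mean of 150.0 TPM, followed by MDK (55.1) and VEGFA (44.6). PDGFA led in SUM159 EV with 100.0 TPM, before VEGFA (64.3) and VEGFB (42.0), and MDK was ninth with 4.40. BT549 EV was dominated by MDK at 1870 TPM, with VEGFA next at 89.7. After the change of TRMT112, MDK in SUM159 KD held the fourth place with 22.2 and 23.8 TPM, and in BT549 OE PTN followed MDK (2260 TPM) at 311 TPM while VEGFA was at 32.4. HBEGF stayed first in MDA-MB-231 KD at 149 TPM, with MDK at 105.

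Other genes of the pathway were counted by lists, which are described beside all genes tested and were not put to a set test. Of all genes tested, 21.2% rose and 16.5% fell in MDA-MB-231 KD. In SUM159 KD 28.6% rose and 31.4% fell, and in BT549 OE 35.6% rose and 35.0% fell. The counts of every list below are to be read beside these shares. Of 23 growth factor receptors and co-receptors listed, 19 were in the deposited table and 18 were tested. The VEGF receptors KDR and FLT1 were not in the table, and FLT4 did not pass the filter. Every listed transcript has a count in BT549, so this absence does not show whether MDA-MB-231 or SUM159 express KDR or FLT1. Of the 18 tested, 10 rose and 1 fell in MDA-MB-231 KD. Among those that rose were PDGFRB, the receptor of mural cells (mean 224.2 in EV and 584.5 in KD), and the heparan sulfate co-receptor GPC1 (455.7 and 934.7). Their median log2 fold change was 0.41, against 0 over all genes. In SUM159 KD, 6 rose and 6 fell, with EGFR, the receptor of HBEGF, at 2724 in EV and 1116 in KD. BT549 OE had 8 higher and 7 lower, and ERBB3 went from 55.03 to 1.661. Of 20 receptors of midkine and pleiotrophin listed, PTPRZ1 and LRP2 did not pass the filter. Among the 18 tested, 9 rose and 1 fell in MDA-MB-231 KD, 8 rose and 5 fell in SUM159 KD, and 8 rose and 8 fell in BT549 OE. Syndecan-3 (SDC3), a receptor of pleiotrophin, rose in MDA-MB-231 KD from 2362 to 4155 and in BT549 OE from 284.2 to 5189. Its mean was also higher in SUM159 KD, at 25150 against 9165 in EV. Syndecan-1 (SDC1) fell in SUM159 KD from 6995 to 660.8, and the laminin-binding integrin subunit ITGA6 fell there from 3378 to 926.8 and in BT549 OE from 1998 to 189.8.

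**Figure D4:**
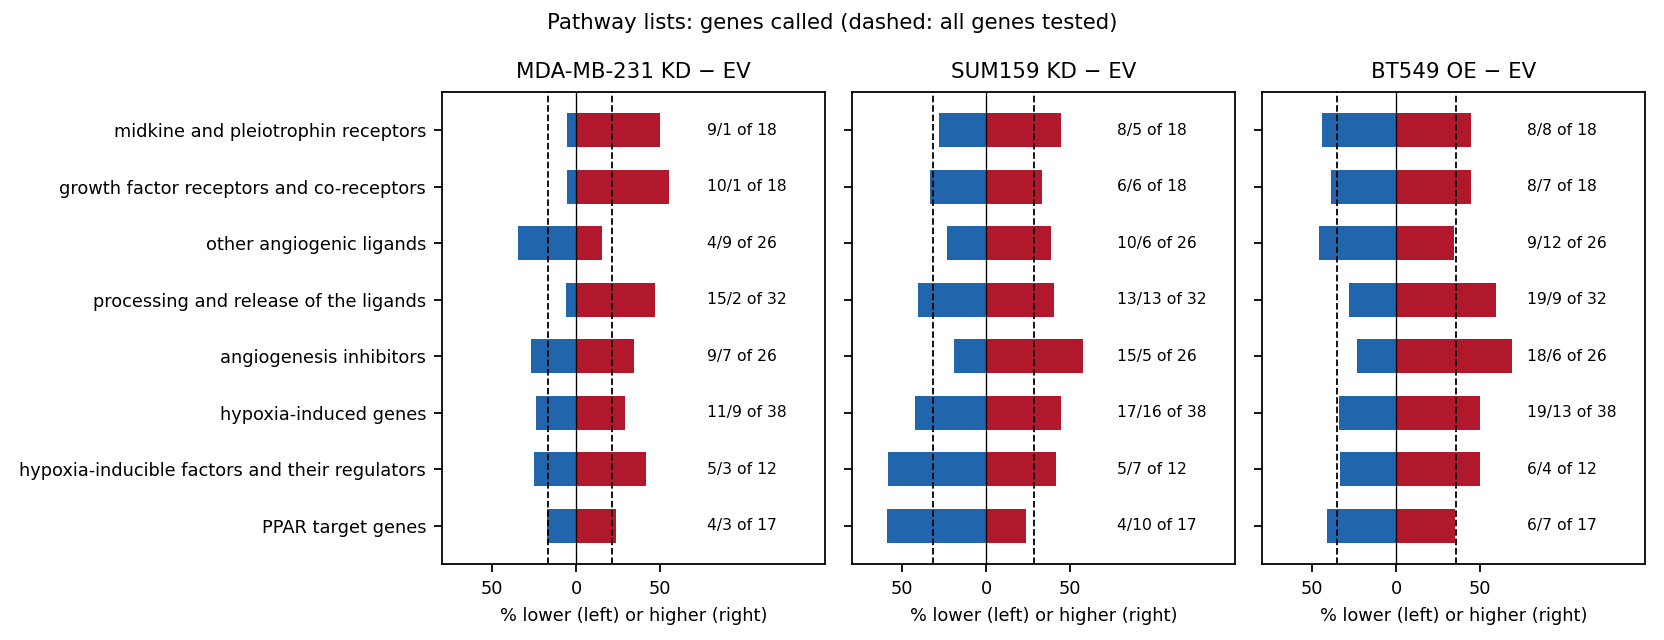
Percent of the tested genes of each pathway list that were called higher (right) or lower (left) in each comparison, with the counts of higher and lower genes beside the bars. Dashed lines mark the percent of all genes tested that were called in each direction. These were 21.2% higher and 16.5% lower in MDA-MB-231 KD, 28.6% and 31.4% in SUM159 KD, and 35.6% and 35.0% in BT549 OE.

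Angiogenic ligands outside the 10 were counted too. Of 26 tested, 4 rose and 9 fell in MDA-MB-231 KD, 10 rose and 6 fell in SUM159 KD, and 9 rose and 12 fell in BT549 OE. The EGF receptor ligands TGFA (233.2 in EV and 5.762 in KD) and AREG (642.6 and 16.64) fell in SUM159 KD, where HBEGF, a ligand of the same receptor, rose. CXCL8, the neutrophil chemokine that also acts on endothelium, fell there from 528.8 to 33.36. In MDA-MB-231 KD the peptide APLN rose from 63.84 to 197.6 and FGF1 fell from 590.6 to 243.1. APLN means were also higher in SUM159 KD (405.9 in EV and 1592 in KD) and in BT549 OE (972.7 and 13540). FGF1 was higher in SUM159 KD (3.022 in EV and 35.58 in KD) and lower in BT549 OE (122.8 and 77.21). PDGFD fell in MDA-MB-231 KD from 73.31 to 29.0 and in BT549 OE from 275.2 to 4.491. Its mean was higher in SUM159 KD, at 57.35 against 10.59 in EV.

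Genes for the release and matrix binding of the ligands were counted in the same way. In MDA-MB-231 KD 15 of 32 rose, 2 fell and 15 did not pass, while SUM159 KD had 13 in each direction and BT549 OE 19 higher and 9 lower. PCSK6, a proprotein convertase, fell in SUM159 KD from 863.2 to 10.52 and in MDA-MB-231 KD from 577.4 to 385.5. Its mean was higher in BT549 OE, at 74.45 against 2.202 in EV. The chondroitin sulfotransferase CHST11 fell in SUM159 KD from 778.7 to 92.79 and rose in MDA-MB-231 KD from 752.9 to 1113. Its mean was lower in BT549 OE, at 637.7 against 3088 in EV. In BT549 several such genes had no count in either EV library: HS6ST2, a heparan sulfate sulfotransferase, had 2293 and 2024 raw counts in OE, at least 1460-fold higher against a floor of 3 counts over the group, and CHST15 had 153 and 149, at least 102-fold higher.

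Angiogenesis inhibitors made up another list. Of 26 tested, 9 rose and 7 fell in MDA-MB-231 KD, beside 21.2% and 16.5% of all genes. In SUM159 KD 15 rose and 5 fell, beside 28.6% and 31.4%, and in BT549 OE 18 rose and 6 fell, beside 35.6% and 35.0%. SPARC, a matrix protein that binds PDGF and VEGF, rose in MDA-MB-231 KD from 204.2 to 937.8. TIMP3, a metalloproteinase inhibitor that blocks VEGF at its receptor, had no count in BT549 EV and 1605 and 1461 in OE, at least 1040-fold higher against the same floor. MDA-MB-231 and SUM159 libraries had 2838 to 4983 normalised counts of it. THBS2, a thrombospondin, rose in SUM159 KD from 15.61 to 75.43, and PTX3, which binds FGF2, fell there from 488 to 71.68.

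VEGFA and ANGPTL4 are known targets of hypoxia-inducible factors, and the list of hypoxia-induced genes did not move one way. Of 38 tested, 11 rose and 9 fell in MDA-MB-231 KD, 17 rose and 16 fell in SUM159 KD, and 19 rose and 13 fell in BT549 OE, with median log2 fold changes of 0.02, 0.00 and 0.25. CA9, a carbonic anhydrase, fell in MDA-MB-231 KD from 121.9 to 14.23. Its means went from 13.77 to 5.032 in BT549 OE and from 612.4 to 1577 in SUM159 KD. DDIT4 fell in SUM159 KD from 64610 to 15410. NDRG1 rose in BT549 OE from 73.21 to 8439. Whether hypoxia signalling had a part in the VEGFA and ANGPTL4 changes was not tested. Of 12 hypoxia-inducible factors and regulators tested, 5 rose and 3 fell in MDA-MB-231 KD, 5 rose and 7 fell in SUM159 KD, and 6 rose and 4 fell in BT549 OE. CITED2, which competes with these factors for their coactivators, rose in MDA-MB-231 KD (3210 to 4882) and SUM159 KD (2479 to 7160). Among 17 PPAR target genes, ANGPTL4 not included, 10 fell and 4 rose in SUM159 KD, 3 fell and 4 rose in MDA-MB-231 KD, and 7 fell and 6 rose in BT549 OE. TXNIP, a glucose-responsive gene of that list, fell in MDA-MB-231 KD from 15280 to 8254 and in SUM159 KD from 17980 to 1839.

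The genes whose level over the 12 libraries was most like that of MDK, by Pearson correlation of log2 CPM among 12589 genes, were CIC (r = 0.995), LRRFIP2 (0.992), MSRA (0.992), MMP14 (0.992) and RAB36 (0.991). MMP14, a membrane-type matrix metalloproteinase, had group means of 1656 and 2234 in MDA-MB-231 EV and KD, 284.1 and 1129 in SUM159 EV and KD, and 13520 and 11170 in BT549 EV and OE. The genes most like VEGFA were GTF2H4 (0.985), TOB1 (0.981), IFI27 (0.979), TIMELESS (0.974) and WNK1 (0.973). IFI27, an interferon-induced gene, had 16640 counts in BT549 EV and 7.321 in OE. The 12 libraries form 6 pairs from 3 lines, so these values mainly describe the order of the groups.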

How the data were processed

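The deposited table was made by the authors from reads cleaned with Trimmomatic, mapped to GRCh38 by HISAT2 and cleared of PCR duplicates in SAMtools. It holds expected counts per Ensembl transcript, as deposited and not normalised, for 12 libraries. In the 8 MDA-MB-231 and SUM159 columns 5.08% of the transcripts carry a mark in place of a number, and these were taken as 0, but no transcript of the 10 ligands is marked. Which tool counted the reads, with what annotation and strand, is not given in the sources used here. For library preparation the labels give poly(A) enrichment, whereas the study's methods give rRNA depletion and stranded total RNA. No listed transcript has 0 in all 4 BT549 libraries, so transcripts of ligands, receptors or markers without BT549 counts are not analysed here.

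Transcripts were matched to GENCODE 44 (79.6% of transcripts and at least 99.2% of counts), summed per symbol and rounded. Genes passing filterByExpr received TMM scaling and entered edgeR 4.0.16 (R 4.3.3, quasi-likelihood test, 1 model of 6 group means, Benjamini-Hochberg adjustment over 16538 genes), and called at an adjusted p under 0.05. The spread between libraries of a group exceeded sampling noise (chi-square per degree of freedom 2.08 to 3.21), so each library was counted once. Intervals of count ratios are exact 95% intervals and, like the limit of 3 counts behind a count of 0, cover counting error only. Python 3.11.15 with pandas 2.3.3 and matplotlib 3.10.9 prepared the tables and figures. The fit was repeated with DESeq2 1.42.0, with RLE or library-size scaling, without a filter or with a minimum mean of 50 counts, with a replicate block, per line, with the most abundant transcript of each ligand, without marked transcripts, without each library in turn and, chosen after seeing the data, without BT549. For the most abundant transcript the model was fitted to all transcripts. Its spread and adjusted p are therefore over transcripts, not over genes.

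The ligands and lists were chosen with earlier results of these data known. Named from the lists were up to 3 called genes per list and comparison with the largest fold changes, a mean of at least 50 counts and groups that did not overlap, and not all of them are printed. Outside this rule, receptors left untested, CDH5, PGR and values of named genes in other comparisons or groups were added. Genes of the other lists are cell type markers. Promoter sequences are from RefSeq (GRCh38.p14), where 7 of the 10 ligands had an entry, and positions and junctions from GENCODE 44. The promoters of MDK, VEGFA and PDGFC are not shown.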

Additional observations from a re-analysis of the deposited data

Results flagged for a closer look

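The KD change of 8 ligands differed between SUM159 and MDA-MB-231 in the test of the difference itself (edgeR, adjusted p under 0.05), beside 50.9% of all genes tested. The difference of log2 fold changes, SUM159 minus MDA-MB-231, was 2.05 for PTN, 1.41 for MDK, 1.31 for PDGFC, 0.65 for HBEGF and 0.59 for VEGFB. It was -1.57 for VEGFC, -0.74 for PDGFA and -0.21 for VEGFA. PTN, VEGFC and PDGFA moved in opposite directions in the lines. MDK rose in both and VEGFA fell in both. The VEGFA difference did not pass without SUM159 KD replicate 2 (adjusted p = 0.062), without BT549 (adjusted p = 0.063) or with only the most abundant transcript counted (adjusted p = 0.585), and with that transcript those of PDGFA (adjusted p = 0.0698) and HBEGF (adjusted p = 0.059) did not pass either.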

How the results depend on the processing

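Of 202 recomputed counts of ligands called, 201 stayed within 1.5 times of the reported count. The exception was the number lower in MDA-MB-231 KD, which was 1 instead of 3 with each cell line fitted alone. In that fit PTN had an adjusted p of 0.0538 and ANGPTL4 did not pass the filter on low counts. Of 1426 recomputed fold changes, 1393 kept their direction and their side of the threshold, 25 no longer passed, 2 newly passed and 6 changed sign. None of the 6 was a called value. With library size only, PDGFC and HBEGF in MDA-MB-231 KD were at -0.0597 and -0.0055. Leaving out each library in turn, PDGFC in MDA-MB-231 KD ranged from -0.0010 to 0.0642. The difference of the ANGPTL4 changes between the lines ranged from -0.52 to 1.06 without 1 library, and was -2.36 with the most abundant transcript. The SE of that last value was 5254.7, so it gives neither a size nor a direction. The transcript, ANGPTL4-201, had 0.0 and 0.0 counts in the MDA-MB-231 KD libraries and 0.1 and 0.3 in SUM159 KD. The cause of the sign changes was not tested. With the replicate block, the counts were 3 higher and 3 lower in MDA-MB-231 KD, 5 and 5 in SUM159 KD, 6 and 4 in BT549 OE and 8 for the difference, and no call changed. Same-numbered libraries did not deviate together (correlations of -0.0437 to 0.0316 over 12590 genes), so the numbers were not taken as pairs. Leaving out a library leaves its group with 1, which is assumed to vary like the others. Depth limits ANGPTL4 and PTN in MDA-MB-231 and PDGFA and HBEGF in BT549 EV, where groups hold 4 to 60 counts.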
